A study of Homo sapiens with 6 samples.

Results

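Most ZnT proteins, encoded by the SLC30A genes, move zinc out of the cytosol, and MTF1 is the transcription factor that senses zinc. Levels of 8 SLC30A genes and of MTF1 were examined here in Huh-7, a human hepatocellular carcinoma line, with and without a plasmid expressing ALKBH5, a demethylase that removes N6-methyladenosine from RNA. The 9 genes were chosen by name and found by Entrez identifier among the 18030 genes of the deposited tables. They were proposed with the comparison of the 2 groups already in view, so their fold changes are given as a description and carry no test. The oeALKBH5 group (genotype label ALKBH5 overexpression) has 3 libraries of cells that received the plasmid by electroporation and were harvested for RNA after 60 h. The control group (genotype label WT) also has 3 libraries. All 6 samples carry the treatment label Untreated. The protocol text on plasmid delivery stands beside the control samples as well, and the series design calls these cells parental, so whether they were electroporated or given an empty plasmid is not stated. Replicates are labelled biological, but the labels name no separate cultures or transfections, so the spread between libraries, and every p-value below, may reflect technical variation alone.

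Zinc transport has opposing arms: ZIP importers (SLC39A genes) bring zinc into the cytosol, and most ZnT exporters carry it across the plasma membrane or into vesicles, the Golgi and other compartments. When free zinc rises, MTF1 binds metal response elements (MREs) in promoters and activates the metallothionein genes, which encode small metal-binding proteins, and SLC30A1, whose product ZnT1 expels zinc from the cell. In liver, these proteins buffer dietary zinc, and SLC30A10 encodes a transporter known mainly for exporting manganese.

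Total estimated counts ran from 18607084 to 18826479 in the oeALKBH5 libraries and from 19265686 to 19378030 in the controls. ALKBH5 itself, the check of the labels, was at 168.8, 133.0 and 110.4 CPM (estimated counts scaled to library size) in oeALKBH5 and 70.5, 74.2 and 75.5 CPM in control, with every oeALKBH5 library above every control. Group means were 137 ± 29.5 and 73.4 ± 2.56 CPM (SD, n = 3 each), which is 0.90 on the log2 scale with an SE of 0.177 and an adjusted p of 0.0154 in edgeR. The edgeR adjusted p was 0.0529 without control 2, at a log2 fold change of 0.91, and 0.0589 without control 3, at 0.92. Among the liver markers, ALB (albumin) and AFP (alpha-fetoprotein) were abundant, but 9 of 9 tested hepatocyte markers fell with ALKBH5, where 22% of all genes tested were lower. With library size alone as the scaling 7 fell. With upper quartile scaling, without oeALKBH5 2 or without any 1 control, 8 fell. The summed level of these markers ran from 21734 to 23341 CPM against 32899 to 33451 CPM. Of 4 immune markers tested, 0 passed. The summed level of the immune markers was 359 to 394 against 346 to 354 CPM. The most abundant were LYZ, at 199 to 257 against 198 to 208 CPM, and CD68, at 129 to 154 against 136 to 140 CPM. CD3E stayed under 1 CPM in every library. Of 4 endothelial and stromal markers tested, COL1A1 rose and PECAM1 fell, CDH5, VWF and DCN stayed under 1 CPM, and the summed level was 27.4 to 28.9 against 32.7 to 35.8 CPM. The part of these shifts in the results below was not tested.

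The promoters of SLC30A1 and SLC30A10 are shown because these exporters differ in their MRE content, and that of the metallothionein gene MT2A because it is rich in MREs. The MRE core was searched as TGCACNC or TGCGCNC on both strands, which reads as GNGTGCA or GNGCGCA where the match lies on the strand opposite the gene. No mismatch was allowed, and overlapping matches were each counted. Sequences are from RefSeq (GRCh38.p14), 5′ to 3′ on the strand of the gene, ending at the base before the start site, with matches in capitals.
SLC30A1, chr1:211579162-211579411, minus strand: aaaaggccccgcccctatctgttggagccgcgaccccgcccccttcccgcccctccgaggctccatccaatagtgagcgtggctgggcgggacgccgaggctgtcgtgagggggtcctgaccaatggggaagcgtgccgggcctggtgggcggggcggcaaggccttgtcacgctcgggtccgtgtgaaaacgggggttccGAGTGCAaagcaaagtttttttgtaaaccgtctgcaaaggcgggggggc
SLC30A10, chr1:219959099-219959348, minus strand: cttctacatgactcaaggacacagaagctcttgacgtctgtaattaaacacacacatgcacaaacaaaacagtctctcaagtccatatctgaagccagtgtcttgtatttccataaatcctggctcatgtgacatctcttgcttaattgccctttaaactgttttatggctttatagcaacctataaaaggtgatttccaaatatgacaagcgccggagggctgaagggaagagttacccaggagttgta
MT2A, chr16:56608334-56608583, plus strand: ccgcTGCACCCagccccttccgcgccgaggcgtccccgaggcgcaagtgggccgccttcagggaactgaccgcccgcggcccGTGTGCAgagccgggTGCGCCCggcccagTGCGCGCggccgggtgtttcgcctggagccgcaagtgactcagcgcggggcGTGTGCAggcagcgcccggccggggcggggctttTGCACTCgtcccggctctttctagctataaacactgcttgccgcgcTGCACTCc
A further match lay just after the start site of SLC30A1 and of MT2A, shown with 7 bases on each side.
SLC30A1, chr1:211579124-211579144, minus strand: ccgggccGAGTGCAgctgccg
MT2A, chr16:56608607-56608627, plus strand: cgaacccGCGTGCAacctgtc

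SLC30A1 therefore held 2 matches in the 300 bases searched (250 before and 50 after the start), at -49 to -43 and at 25 to 31 from the start, both on the opposite strand. Positions follow the RefSeq start sites. That of SLC30A1 lies 419 bases upstream of the first base of the gene in GENCODE release 29, and that of the SLC30A10 promoter shown lies 451 bases upstream of it. With a minus for downstream, the offset was -471 and -12770 for the 2 SLC30A3 promoters, -368 for SLC30A5 and -30090 for the other SLC30A10 promoter. With the GENCODE starts other windows would therefore have been searched for these genes. MT2A held 8, of which 7 lie before the start, and MT1X held 4. Of 35116 promoters of this length, 29.6% held at least 1 match, 8.60% at least 2, 0.601% at least 4 and 0.0199% at least 8. All 9 genes were found in the promoter table, with 11 entries between them, and 5 entries of 4 genes held a match. SLC30A3 had 2 matches in one promoter and 1 in the other, SLC30A4 had 1 at -124 to -118, and SLC30A6 had 1 at -128 to -122. SLC30A5, SLC30A7, SLC30A9, both SLC30A10 entries and MTF1 had 0, which says only that these letters are missing from this window. A match is a description of the sequence and not evidence of MTF1 binding.

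**Figure D1:**
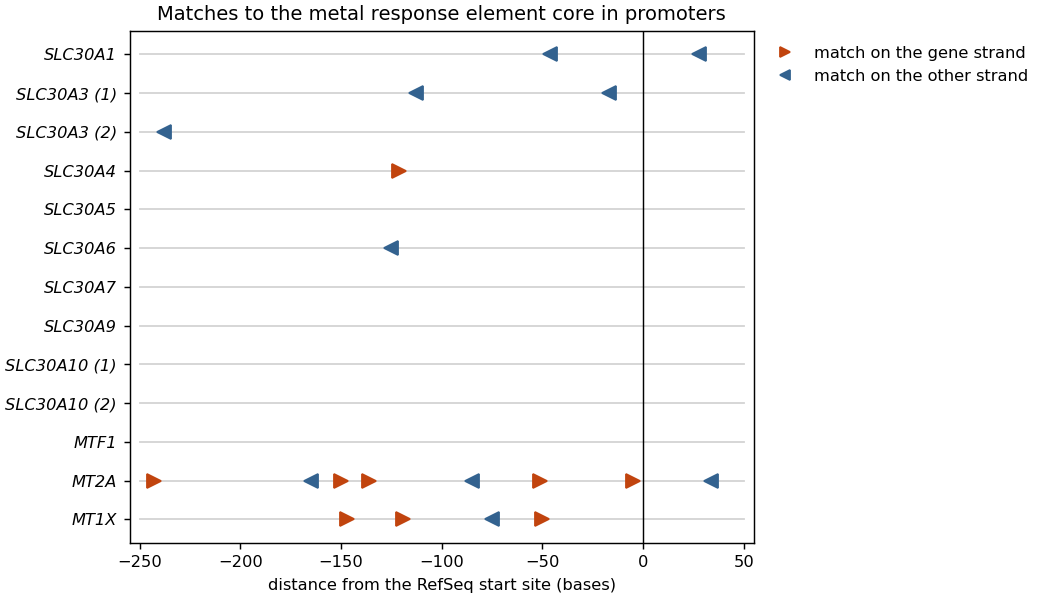
Positions of matches to the MRE core (TGCACNC or TGCGCNC) in the 300-base promoters of the 9 genes and of MT2A and MT1X, as distance from the RefSeq start site in bases; numbers in brackets tell apart 2 promoters of a gene, and arrowheads give the strand of the match. SLC30A1 has 2 matches near its start, MT2A 8 and MT1X 4, and both SLC30A10 promoters have 0.

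SLC30A1 had the largest fold change of the 9 genes. Its locus (Entrez 7779) spans 211571568 to 211578742 on the minus strand of chromosome 1 (GRCh38, GENCODE release 29), and the 5474-nt mRNA has 2 exons. The oeALKBH5 libraries held 1369, 1256 and 1295 estimated counts and the controls 556, 530 and 531. In CPM the levels were 71.2, 65.2 and 67.6 against 29.9, 28.0 and 28.2, so that the lowest oeALKBH5 library was above the highest control. Means were 68.0 ± 3.01 and 28.7 ± 1.04 CPM (SD, n = 3 each), and the fitted log2 fold change was 1.24 (SE 0.0585), which is 2.37-fold with a 95% interval of 2.18 to 2.58. Ranked by log2 fold change, SLC30A1 was number 92 from the top of 14168 genes tested, and the median absolute log2 fold change of all genes was 0.185. In FPKM (fragments per kilobase of transcript and per depth, as the authors deposited them) the values were 12.52, 11.55 and 11.77 against 4.94, 4.69 and 4.69, a ratio of means of 2.50. Its log2 fold change stayed between 1.21 and 1.32 under 14 other settings of the analysis.

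SLC30A10 (Entrez 55532), the manganese exporter, lies on chromosome 1 at 219685427 to 219958647, minus strand, and its matched transcript has 4 exons over 1915 nt. Its levels were 95.2, 102.0 and 91.6 CPM in oeALKBH5 and 88.5, 94.2 and 90.1 CPM in control, and the groups overlapped. In FPKM they did not, at 15.14, 16.35 and 14.44 against 13.23, 14.28 and 13.60. Its log2 fold change was 0.08 (SE 0.0520), with a 95% interval of the fold from 0.982 to 1.14. With library size alone as the scaling the log2 fold change was 0.16. The ratio of SLC30A1 to SLC30A10 in FPKM moved from 0.349 ± 0.0228 in control to 0.783 ± 0.0664 in oeALKBH5 (SD, n = 3 each).

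SLC30A3 and SLC30A4 load zinc into vesicles, ZnT3 in synaptic vesicles and ZnT4 in secretory and endosomal vesicles, and both were scarce in Huh-7. SLC30A4 (Entrez 7782; chromosome 15, 45479611 to 45522807, minus strand, 8 exons, 7157 nt) had 48.55, 38.08 and 45.8 estimated counts with ALKBH5 and 31.09, 23.57 and 32.14 in control. Its level was 2.55, 1.97 and 2.40 CPM against 1.67, 1.27 and 1.70 CPM, with no overlap between the groups. The log2 fold change was 0.58 (SE 0.212), a 1.49-fold difference with a 95% interval of 1.10 to 2.03. With DESeq2 the log2 fold change of SLC30A4 was 0.58 (SE 0.322). Over 14 other settings of the analysis it ran from 0.45, without control 2, to 0.68, without oeALKBH5 2.

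SLC30A3 (Entrez 7781; chromosome 2, 27253684 to 27275817, minus strand, 8 exons, 2260 nt) was near the limit of detection. The oeALKBH5 libraries held 11.57, 10.33 and 9.49 estimated counts and the controls 7.13, 8.36 and 14.9, so the groups overlapped and the highest value was a control. On the log2 scale the difference was 0.01 (SE 0.388), and the 95% interval of the fold ran from 0.577 to 1.77. Folds inside that interval are compatible with these counts, so a difference of that size is not excluded. The span of SLC30A3 overlaps that of DNAJC5G on the opposite strand, which had 2.79 to 12.52 estimated counts. Whether their exons overlap was not examined. The strand setting of the counting is not given in the sources used here, so whether reads of the pair were mixed is not known.

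SLC30A2 (ZnT2, another vesicular exporter) is outside the 9 genes and was looked up after its values were seen. It had 19.14, 20.88 and 15.48 estimated counts with ALKBH5 and 5.27, 11.28 and 6.53 in control. Every oeALKBH5 library was above every control, at 0.953 ± 0.156 against 0.407 ± 0.159 CPM (SD, n = 3 each).

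The exporters of the early secretory pathway, SLC30A5, SLC30A6 and SLC30A7, had groups that overlapped. ZnT5 and ZnT6 work as a heterodimer and ZnT7 as a homodimer, and they supply zinc to enzymes such as alkaline phosphatases. SLC30A5 (Entrez 64924; chromosome 5, 69093646 to 69131069, plus strand, 16 exons, 4360 nt) was at 44.6, 48.0 and 48.8 CPM in oeALKBH5 and 45.4, 47.5 and 49.8 CPM in control, a log2 fold change of -0.01 (SE 0.0584). The dimer partner SLC30A6 (Entrez 55676; chromosome 2, 32165841 to 32224379, plus strand, 14 exons, 5089 nt) was at 43.3, 43.3 and 42.0 CPM against 40.8, 44.3 and 47.6 CPM, with a log2 fold change of -0.05 (SE 0.0616). SLC30A7 (Entrez 148867; chromosome 1, 100896076 to 100981753, plus strand, 12 exons, 7898 nt) was at 25.6, 28.2 and 29.4 CPM against 27.8, 28.1 and 30.5 CPM, with a log2 fold change of -0.05 (SE 0.0699). In FPKM the ratio of SLC30A5 to SLC30A6 was 1.93 ± 0.196 in oeALKBH5 and 1.86 ± 0.132 in control (SD, n = 3 each), so the balance of the dimer partners overlapped between the groups. With library size alone as the scaling, the signs turned and the log2 fold changes were 0.07, 0.03 and 0.03.

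SLC30A9 (Entrez 10463; chromosome 4, 41990472 to 42090457, plus strand, 18 exons, 6218 nt) encodes the mitochondrial zinc exporter ZnT9. Its levels were 66.0, 71.0 and 71.8 CPM in oeALKBH5 and 74.7, 73.7 and 77.3 CPM in control, all controls above all oeALKBH5 libraries. The log2 fold change was -0.11 (SE 0.0521). In FPKM the groups overlapped, at 16.93, 18.38 and 18.57 against 17.80, 18.25 and 18.54. Over the 5 exporters SLC30A5, SLC30A6, SLC30A7, SLC30A9 and SLC30A10, log2 fold changes lay between -0.11 and 0.08, and the 95% intervals of the fold together spanned 0.858 to 1.14.

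MTF1 (Entrez 4520; chromosome 1, 37809567 to 37859620, minus strand, 11 exons, 7972 nt) had a small difference in mRNA. The oeALKBH5 libraries held 411, 385 and 345 estimated counts and the controls 296, 333 and 330, and levels were 21.4, 19.9 and 18.0 CPM against 15.9, 17.6 and 17.5 CPM. The groups did not overlap, though oeALKBH5 3 was close to the controls. The log2 fold change was 0.22 (SE 0.0814), or 1.16-fold with a 95% interval of 1.03 to 1.31. In FPKM the levels were 2.81, 2.85 and 2.54 against 2.0, 2.16 and 2.14. With DESeq2 the log2 fold change of MTF1 was 0.21 (SE 0.112). Over 14 other settings of the analysis it ran from 0.16, without oeALKBH5 1, to 0.30, with library size alone.

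**Figure D2:**
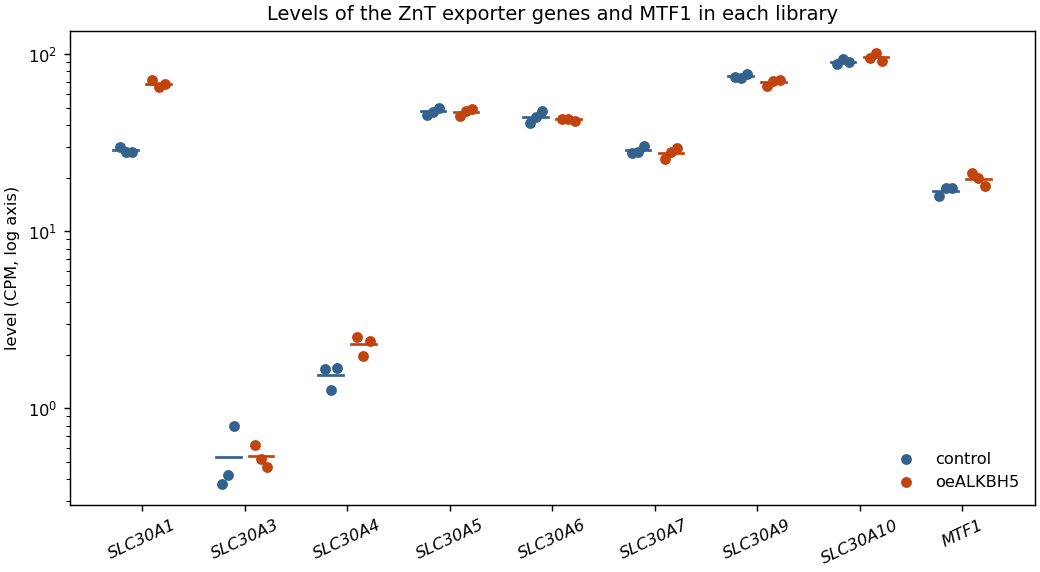
Level in CPM (log axis) of each of the 9 genes in the 3 control and 3 oeALKBH5 libraries, with one point per library and a bar at the group mean. SLC30A1 is at 28.0 to 29.9 CPM in control and 65.2 to 71.2 CPM in oeALKBH5, while SLC30A5, SLC30A6, SLC30A7 and SLC30A10 overlap between the groups.

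In the fit over all genes with edgeR, passing meant an adjusted p under 0.05, and no such call is read for the 9 genes. Of all 14168 genes tested, 20.8% passed on the higher side, 22% on the lower and 42.8% in either direction. CPM did not overlap between the groups for 4 of the 9 genes and for 52.8% of all genes. Because the 9 genes were chosen with this comparison in view, nothing is read from this count of 4. The log2 fold change was above 0 for 5 genes and below 0 for 4, with a median of 0.01 against 0.0062 for all genes tested.

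Levels per length (FPKM) put the genes in an order, given here for control. SLC30A9, at 18.2 ± 0.373 FPKM (SD, n = 3 throughout), and SLC30A5, at 17.6 ± 0.757, came first and overlapped. They were followed by SLC30A10 at 13.7 ± 0.533, SLC30A6 at 9.50 ± 0.950, SLC30A1 at 4.77 ± 0.144 and SLC30A7 at 3.72 ± 0.384. MTF1 at 2.1 ± 0.0872, SLC30A4 at 0.427 ± 0.0666 and SLC30A3 at 0.200 ± 0.0625 FPKM came last. Apart from the leading pair, neighbours did not overlap over the 3 libraries. In oeALKBH5, SLC30A1 stood at 11.9 ± 0.509 FPKM, above SLC30A6 at 9.83 ± 0.495 and below SLC30A10 at 15.3 ± 0.966, again without overlap. SLC30A5 (18.9 ± 1.05) and SLC30A9 (18.0 ± 0.897) again overlapped at the top, and SLC30A7, MTF1, SLC30A4 and SLC30A3 followed SLC30A6 in the same order as in control.

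Summed over the 8 SLC30A genes, the level was 77.09, 80.24 and 78.89 FPKM in oeALKBH5 and 65.44, 68.37 and 70.44 FPKM in control. Without SLC30A1 the groups overlapped, at 66.8 ± 2.08 against 63.3 ± 2.64 FPKM (SD, n = 3 each). SLC30A1 supplied 15.2% ± 0.951 of the sum in oeALKBH5 and 7.02% ± 0.467 in control. SLC30A9 supplied 22.8% ± 0.794 against 26.7% ± 0.442, and SLC30A10 19.4% ± 1.05 against 20.1% ± 0.793. FPKM values were taken as deposited, with no further scaling between libraries.

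**Figure D3:**
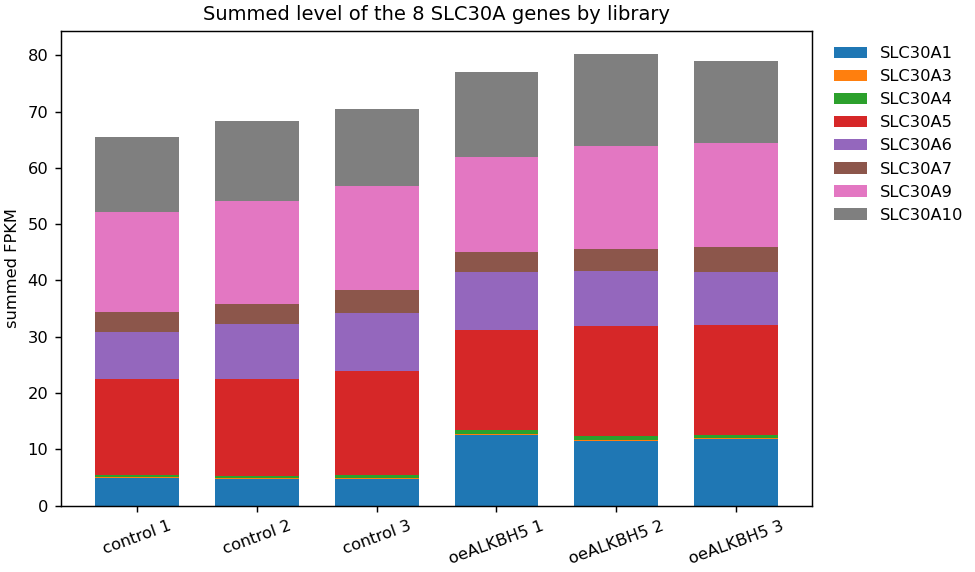
Summed FPKM of the 8 SLC30A genes in each library, stacked by gene. The oeALKBH5 bars reach 77.09 to 80.24 FPKM and the control bars 65.44 to 70.44 FPKM, and the SLC30A1 segment takes 15.2% on average against 7.02%.

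The tables hold 46 transcripts of the 9 genes, of which 36 had a mean of at least 0.1 FPKM and 29 were at 0 in at least 1 library. Transcripts of one gene share most of their sequence, so the model that divides reads between them can shift them from library to library, and these values are given with no test. SLC30A1 has 1 transcript (NM_021194.3), so its level involves no such division. SLC30A9 was divided between XM_017007654.2, with 56.6% ± 1.04 of the gene's FPKM in oeALKBH5 and 55.6% ± 1.47 in control (SD, n = 3 each), and NM_006345.4. As a share of estimated counts XM_017007654.2 held 33.4% and 32.4%, so that NM_006345.4 led on that scale. SLC30A10 came mostly from NM_018713.3, with 74.1% ± 1.94 against 72.0% ± 5.02. SLC30A5 came mostly from XM_005248569.3, with 57.5% ± 1.08 against 62.7% ± 4.29, and as a share of estimated counts the control value was 72.3%.

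MTF1 shows how unsteady the division can be. Its leading transcript NM_005955.3 was at 0.92, 1.12 and 2.23 FPKM in oeALKBH5 and 0.99, 0.71 and 0.45 FPKM in control, while XM_011541494.1 was at 1.47, 1.38 and 0 against 0.20, 1.02 and 1.09. In oeALKBH5 3 the second transcript is listed at 0 and the first at its highest level, although MTF1 as a whole varied by only 6.17% between oeALKBH5 libraries (coefficient of variation of the FPKM), against 49.6% for NM_005955.3. In control the coefficients were 4.15% for the gene and 37.7% for the transcript. SLC30A6, with 18 transcripts, had 16 at 0 in at least 1 library. One of these, NM_001330479.2, had 71.01, 23.21 and 27.19 estimated counts with ALKBH5 and 0 in all controls, while SLC30A6 as a whole overlapped between the groups.

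**Figure D4:**
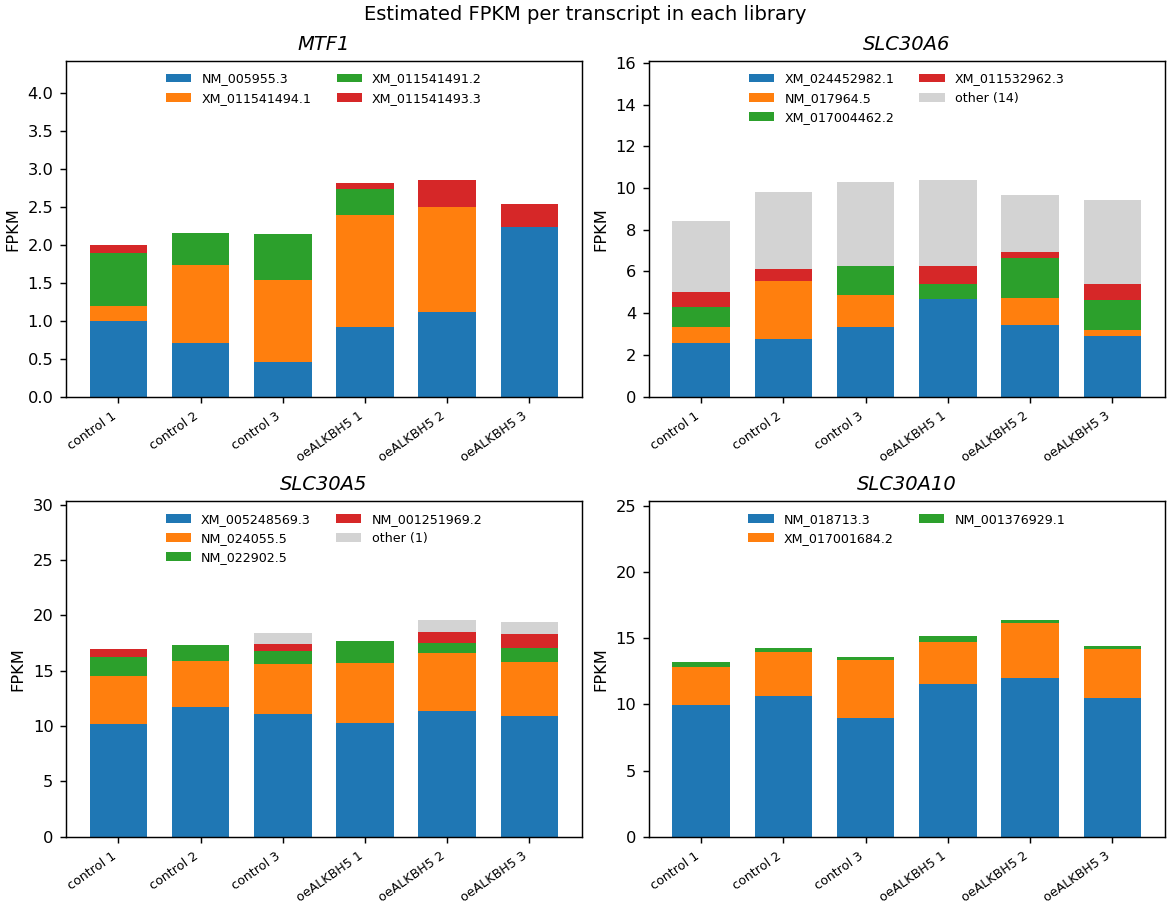
Estimated FPKM per transcript of MTF1, SLC30A6, SLC30A5 and SLC30A10 in each library, stacked, with the 4 most abundant transcripts coloured and the others in grey. The MTF1 bars change composition between libraries, with XM_011541494.1 at 0 in oeALKBH5 3, while NM_018713.3 holds most of SLC30A10 in all 6 libraries.

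The remaining genes of zinc handling were taken from lists, and the lists were drawn up with earlier results of these data known. Metallothioneins rose: 7 of 8 tested passed as higher and 0 as lower (20.8% and 22% of all genes tested), with a median log2 fold change of 1.44 against 0.0062 for all genes. MT2A went from 178 ± 6.82 to 555 ± 39.5 CPM (SD, n = 3 each; log2 fold change 1.64, edgeR adjusted p = 8.37e-15) and MT1E from 28.4 ± 1.54 to 189 ± 9.52 CPM (2.73, edgeR adjusted p = 7.32e-18). MT1X had the largest fold of the tested metallothioneins, from 3.26 ± 0.363 to 67.4 ± 14.2 CPM (4.37, edgeR adjusted p = 5.62e-05). MT1F, MT1G, MT1M and MT1A also rose, with log2 fold changes of 1.95, 1.23, 1.02 and 1.03, and MT1B did not pass (0.13). Metallothionein genes are near-identical copies, so reads may have been divided between them with error; their summed level was 1002 ± 67.9 against 280.0 ± 5.58 CPM, which depends less on that division.

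Of 12 ZIP importers tested, 8 passed as lower and 0 as higher (22% and 20.8% of all genes tested), and the median log2 fold change was -0.18. SLC39A4, the intestinal-type importer ZIP4, fell from 16.9 ± 1.12 to 3.07 ± 0.759 CPM (log2 fold change -2.46, edgeR adjusted p = 2.63e-11). SLC39A10 fell from 39.7 ± 3.02 to 21.2 ± 0.565 CPM (-0.91, edgeR adjusted p = 3.34e-09) and SLC39A5 from 71.3 ± 3.18 to 55.2 ± 2.30 CPM (-0.37, edgeR adjusted p = 2.08e-05). Smaller falls were seen for SLC39A9 (-0.24), SLC39A3 (-0.25), SLC39A7 (-0.15) and SLC39A1 (-0.14), while SLC39A14, a broad importer of zinc, iron and manganese abundant in liver, did not pass, at 606 ± 12.6 against 604 ± 8.49 CPM. With library size alone 5 ZIP genes were lower and 2 higher, and with upper quartile scaling 8 were lower and 1 higher. Without control 3 there were 5 lower, and SLC39A1 and SLC39A7 did not pass. SLC39A7 also missed the threshold without oeALKBH5 2, and SLC39A1 without oeALKBH5 2 or control 1. The ZIP gene that passed as lower but is not named here did so in 7 of 14 alternatives. The FPKM ratio of SLC30A1 to SLC39A4 was 5.83 ± 1.09 in oeALKBH5 and 0.440 ± 0.0349 in control.

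**Figure D5:**
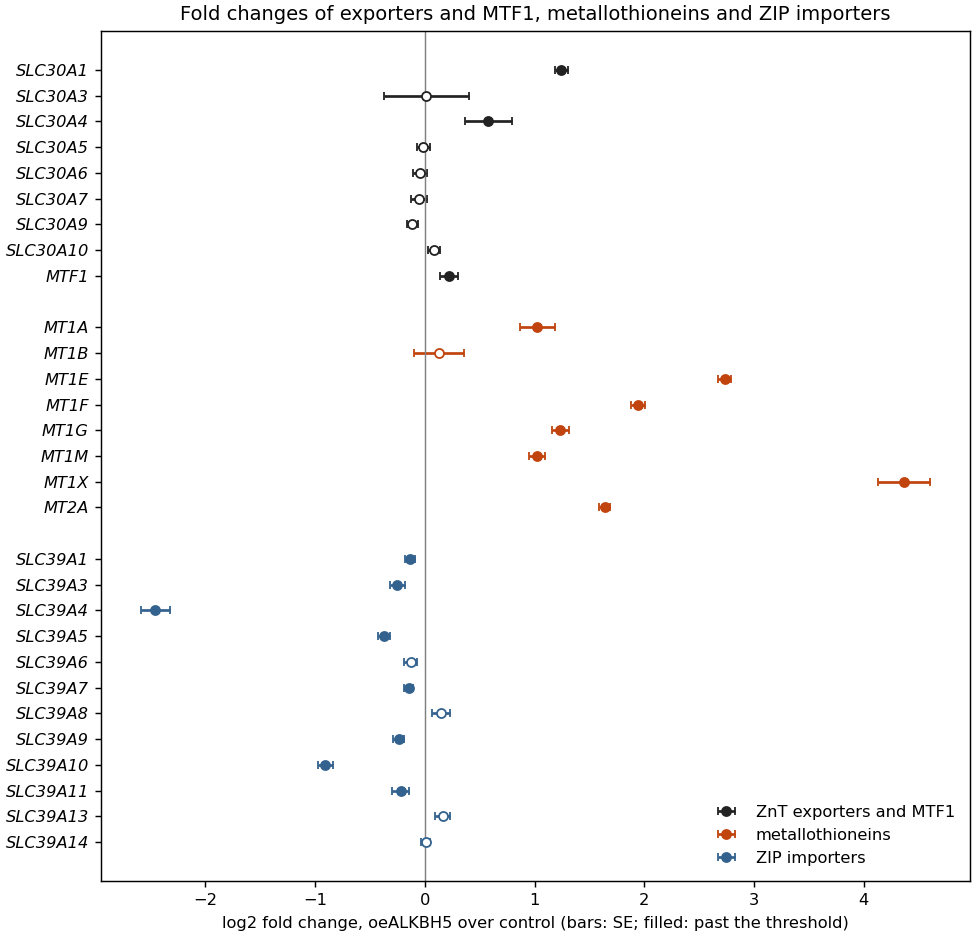
Log2 fold change (oeALKBH5 over control) with its SE, from edgeR, for the 9 genes, the tested metallothioneins and the tested ZIP importers. Filled symbols were past an adjusted p of 0.05, and for the 9 genes the fill is not read as a test. SLC30A1 at 1.24 lies among the metallothioneins (0.13 to 4.37), the other 8 lie between -0.11 and 0.58, and SLC39A4 is the lowest at -2.46.

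Of 5 further genes reported as MTF1 targets, 2 rose, 1 fell and 2 did not pass, where 42.8% of all genes tested passed in either direction. CSRP1, a LIM-domain protein of the cytoskeleton, rose from 42.0 ± 1.10 to 108 ± 9.72 CPM (log2 fold change 1.36, edgeR adjusted p = 2.20e-12), and SLC40A1, the iron exporter ferroportin, from 52.7 ± 1.79 to 62.6 ± 1.02 CPM (0.25, edgeR adjusted p = 0.000781). SLC39A10, also among the ZIP genes above that fell, is the 1 that fell here. MTF1 is reported to repress SLC39A10, and whether MTF1 acted on any of these 5 genes was not tested. SELENOH was at 291 ± 31.6 against 291 ± 7.38 CPM, and PGF at 19.0 ± 1.36 against 21.5 ± 2.96 CPM. Of 5 factors reported to work with MTF1 at promoters, HIF1A (0.30, edgeR adjusted p = 0.00105) and EP300 (0.15, edgeR adjusted p = 0.0341) rose, and SP1 (-0.21, edgeR adjusted p = 0.00392), USF2 (-0.21, edgeR adjusted p = 0.00113) and USF1 (-0.15, edgeR adjusted p = 0.0294) fell. EP300 did not pass without oeALKBH5 1, oeALKBH5 2 or any 1 control (log2 fold change 0.09 to 0.23 over all alternatives), and USF1 did not without oeALKBH5 2, control 2 or control 3, with DESeq2, or with upper quartile scaling or library size alone (-0.18 to -0.07). SP1 did not pass with library size alone (-0.13).

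Of 8 tested zinc enzymes of the secretory pathway, where SLC30A5 to SLC30A7 supply zinc, 1 rose and 2 fell, against 42.8% of all genes tested passing in either direction. ALPI, intestinal alkaline phosphatase, fell from 62.2 ± 4.18 to 26.2 ± 1.42 CPM (log2 fold change -1.25, edgeR adjusted p = 8.53e-12), and the nucleotide pyrophosphatase gene ENPP3 rose from 5.34 ± 0.381 to 7.66 ± 0.401 CPM (0.52, edgeR adjusted p = 0.00121). ACE fell from 1.15 ± 0.141 to 0.433 ± 0.0788 CPM (edgeR adjusted p = 0.00142), a level near the filter on low counts. NT5E, ENPP1 and ENPP2 did not pass, with log2 fold changes of -0.14, -0.03 and 0.04. For manganese, SLC40A1 rose and ATP2C1, the Golgi calcium and manganese pump, fell (-0.13, edgeR adjusted p = 0.0427), and 4 of 6 did not pass, so that 2 of 6 passed where 42.8% of all genes did. ATP2C1 did not pass with DESeq2, with upper quartile scaling or library size alone, and without oeALKBH5 1, oeALKBH5 2, control 2 or control 3 (-0.16 to -0.05). Among 9 tested genes of other zinc handling, 1 rose, 4 fell and 4 did not pass. Of all genes tested, 20.8% passed as higher and 22% as lower. MCOLN1, a lysosomal channel, rose (0.23). GPR39, a zinc receptor, and 3 near-identical zinc chaperone genes, ZNG1A, ZNG1B and ZNG1C (-0.28, -0.31 and -0.92), fell. The related copies ZNG1E (-0.04) and ZNG1F (0.08) did not pass, and reads may have been divided between the copies with error. MCOLN1 did not pass without oeALKBH5 1, control 2 or control 3 (0.14 to 0.31 over all alternatives), and GPR39 (-0.32) did not with DESeq2, with library size alone, or without oeALKBH5 2, oeALKBH5 3 or any 1 control (-0.37 to -0.24).

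Genes with the most similar profiles were found by the distance between log2 CPM values over the 6 libraries, each gene centred on its control mean, among 12353 genes. For SLC30A1 the 5 nearest were ADAMTS12 (distance 0.148), EMP3 (0.177), SYT12 (0.180), HAL (0.186) and P3H3 (0.194), and 15 genes lay within 0.3. For MTF1 they were ZNF81, USP37, NR5A2, SLC12A2 and KLHL5, with 1881 genes within 0.3, and for SLC30A10 ANKRD13A, ATAD2, SNX1, ATAD2B and CDC14B, with 3750 within 0.3. The log2 fold changes of MTF1 and SLC30A10 were small, at 0.22 and 0.08. The 5 genes nearest to SLC30A1 had log2 fold changes of 1.18 to 1.28, against 1.24 for SLC30A1. With control values centred, the distance mostly restates the fold change, and shared regulation was not tested.

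Transcript length moved with the fold change across genes: longer mRNAs tended to have higher log2 fold changes (Spearman rho 0.225 across 13594 genes, which are not independent replicates). Of 2493 genes within 20% of the length of SLC30A1, itself included, the median log2 fold change was 0.05 and the 95th percentile 0.56. In this set 11 genes, SLC30A1 among them, were at least as high as SLC30A1. GGACT, a core of many N6-methyladenosine sites, occurred 4 times in the SLC30A1 mRNA (0.731 per kb) and 6 times in that of MTF1 (0.753 per kb), against a median of 0.943 and quartiles of 0.570 and 1.40 per kb over all tested genes. Over the matched transcripts of the 9 genes the range was 0.161 per kb in SLC30A9 to 2.09 per kb in SLC30A10. The SLC30A10 value rests on a match of 1915 nt. In control 2, NM_018713.3 of SLC30A10 had 1345 estimated counts at 10.65 FPKM, and SLC30A1, with a match of 5474 nt, had 530 at 4.69 FPKM. By counts per FPKM the quantified SLC30A10 transcript is longer than its match, so this density may not hold for it. Methylation itself was not measured in these libraries.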

How the data were processed

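RNA of 3 oeALKBH5 and 3 control Huh-7 samples was sequenced. The authors deposited estimated counts and FPKM values for 80668 RefSeq transcripts; the submitters' processing notes name RSEM 1.2.8, Bowtie2 2.2.5, HISAT2 2.1.0 and the genome GRCh38.p13. What each tool did, and any filter or strand option, is not given in the sources used here. Transcripts with the same Entrez identifier were added up, giving 18030 genes, and count sums were rounded. Symbols matched for 17881 genes; the other 149 held 0.0264% of counts. Replicates differed by more than counting noise (chi-square per degree of freedom 1.65 to 7.16), so no pair was treated as 1 library deposited more than once; this does not show that the cultures were independent.

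edgeR 4.0.16 (R 4.3.3; TMM, minimum count 10, robust quasi-likelihood test, group alone in the model, two-sided, Benjamini-Hochberg adjustment) was fitted over 14168 genes, with a threshold of 0.05 on the adjusted p. SE was derived from the F statistic (log2 fold change divided by its root), and intervals are 95% from the t distribution of the fit. The biological coefficient of variation was 4.61%. FPKM was tested with limma 3.58.1 on log2(FPKM + 1) where 3 libraries reached an FPKM of 1, which understates changes of low genes. Scripts were tested on simulated data.

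The 9 genes, the lists and the tests were chosen with earlier results of these data known. Named beside the 9 genes were ALKBH5, up to 3 list genes per direction by p, list genes with a mean FPKM of at least 10, and the 5 nearest profiles. Transcript lengths and positions came from GENCODE release 29 (GRCh38), promoters from RefSeq (GRCh38.p14). Alternatives were DESeq2 1.42.0, limma-voom, other scalings and filters, a replicate block, another pseudocount, shares by estimated counts, and leaving out each library.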

Additional observations from a re-analysis of the deposited data

How the results depend on the processing

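The log2 fold change of SLC30A1 was above 0 under all 14 alternatives of the count analysis, as a description of a gene chosen for this comparison. Scaling by library size alone gave 4266 genes higher and 2047 lower, against 2948 and 3114 in the main analysis. The median log2 fold change of all genes was then 0.085. Over all lists beside the 9 genes and the cell type markers, 11 genes were then lower against 18. These lists hold the MTF1 partners and manganese genes as well as zinc genes. With DESeq2, 1 of the 9 genes was past the threshold, and leaving out single libraries gave 1 to 2 against 3, with one library fewer in each fit. The log2 fold change of ALKBH5 ran from 0.73 to 1.04 when single libraries were left out, and its edgeR adjusted p was 0.0529 without control 2 and 0.0589 without control 3; the cause was not tested.

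Replicate numbers are shared by the groups, but the deviations of same-numbered libraries correlated at 0.175, 0.116 and 0.0845, and control 3 correlated best with oeALKBH5 2 (0.0999), so the numbers were not taken as pairs. With the replicate number as a block, 6468 genes passed against 6062, and ALKBH5 had a log2 fold change of 0.89 (edgeR adjusted p = 0.0538). The FPKM analysis called 5512 genes, against 5508 with a pseudocount of 0.1 and 5300 without a filter. SLC30A3, SLC30A5, SLC30A6 and SLC30A7 had the other sign in 3, 4, 2 and 2 alternatives. Over 14 alternatives the log2 fold change ran from 0.45 to 0.68 for SLC30A4 and from 0.16 to 0.30 for MTF1. SLC30A3 and SLC30A4 had under 50 estimated counts per library and the largest SEs of the 9 genes (0.388 and 0.212).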
